A study of Homo sapiens with 8 samples.

Results

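The 10 genes described here are CTNNB1, APC, AXIN1, AXIN2, TCF7, TCF7L2, LEF1, RNF43, ZNRF3 and MYC, which encode core parts of the canonical Wnt pathway and its best known growth target. They were chosen by name out of 20037 protein-coding genes. All ChIP-seq peaks from 10 kb before to 10 kb after each gene, inside the gene included, were collected from 6 peak lists. In the lists, 108 peaks lay in these windows, and all 10 genes had at least 1 peak.

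In canonical Wnt signalling a ligand binds a Frizzled receptor with an LRP co-receptor, which stops a cytoplasmic destruction complex from marking beta-catenin for degradation. Beta-catenin then enters the nucleus and acts with TCF and LEF proteins on target genes, AXIN2 and MYC among them. In liver the pathway sets the zonation of hepatocytes, and mutations of CTNNB1 and AXIN1 recur in hepatocellular carcinoma.

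The cells were Huh7, a human hepatocellular carcinoma line, and all groups shared a knockout of endogenous ARID1A, a DNA-binding subunit of the SWI/SNF chromatin remodeller, and the expression of Flag-tagged ARID1A from a lentivirus. The tagged protein was wild type (WT) or carried the V2084D substitution, and a further group combined this mutant with a knockdown of STUB1, which encodes a chaperone-associated E3 ubiquitin ligase. Each of these 3 groups had 2 Flag ChIP libraries. Of the WT cells, 2 input samples are labelled too and had no part in the comparisons. ARID1A was thus expressed from a vector and not from its own locus, and the labels do not state whether the knockout line was 1 clone, or whether a group's pair of libraries was grown separately. For that reason a p-value here speaks only of library-to-library spread, possibly of technical origin.

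The lists differed in length, with 27587 and 26515 peaks in WT, 6000 and 12384 in V2084D, and 8904 and 6663 in V2084D with STUB1 knockdown, and the V2084D libraries differed most within a group. Read depth is unknown for all 6 libraries. Fold enrichment (a ratio given by the authors' peak caller) and the rank by −log10 q, with rank 1 the strongest and ties sharing the best rank, describe a peak within its own list and were not compared between lists. A peak lay within 10 kb of or inside ARID1A and STUB1 in all 6 lists, which does not measure their protein. The best peak at ARID1A had rank 1 in both V2084D lists (folds 23.98 and 32.27), rank 5 in both knockdown lists and ranks 483 and 55 in WT. The vector carries ARID1A sequence, and its part in these peaks was not tested, so they are not read as occupancy of the locus. Likewise peak lists hold no expression by which to check the labelled cell type, and of the hepatocyte genes ALB, AFP and SERPINA1 had no peak in any list, TTR and HNF4A had one in 1 WT list each and APOA1 had one in 5 lists. Of genes of other cell types, PECAM1 (endothelium), PTPRC and CD3E (blood cells) and COL1A2 (fibroblasts) had none, VWF (endothelium) had one in 3 lists and COL1A1 (fibroblasts) in all 6. In the genome table, GRCh38.p14, 4 of the 10 genes were longer than 100 kb and 5 were 30 to 100 kb long, and a long gene can hold more peaks by its extent alone.

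**Figure D1:**
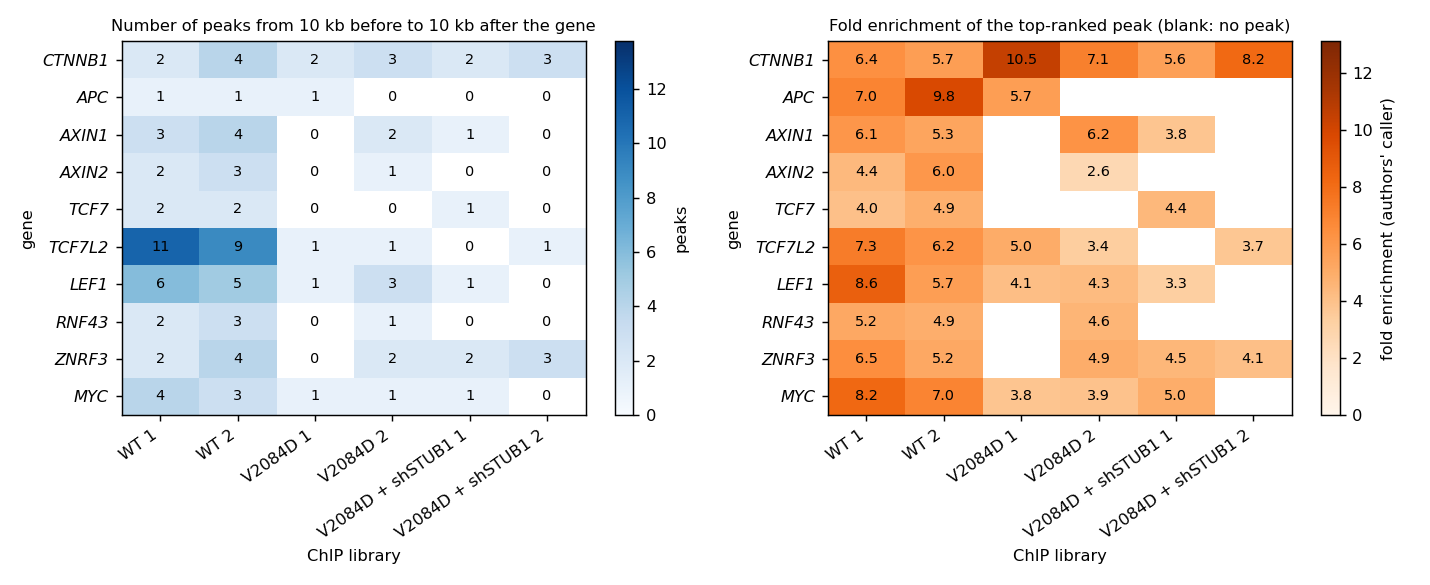
Number of peaks (left) and fold enrichment of the top-ranked peak (right) at each of the 10 genes (rows) in each of the 6 ChIP libraries (columns). All 10 genes have a peak in both WT lists, TCF7L2 has the most (11 and 9), and CTNNB1 alone has a peak in every list.

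Peaks of wild-type ARID1A were found at all 10 genes in both WT lists, and a gene window held a peak in 71.9% and 71.2% of all protein-coding genes in these lists. The V2084D lists had a peak at 5 of the 10 genes in replicate 1 (28.8% of all genes) and at 8 in replicate 2 (46.0% of all genes). With STUB1 knockdown the counts were 6 in replicate 1 (40.0% of all genes) and 3 in replicate 2 (31.4% of all genes). A reproducible WT region, where peaks of both WT libraries overlap by at least 1 bp, was present at 9 genes, against 63.8% of all genes, and TCF7 was the gene without one. Beside gene length the WT background was 71.1% of genes of 30 to 100 kb and 73.4% of longer genes. Peaks in both V2084D lists were found at 4 genes, CTNNB1, TCF7L2, LEF1 and MYC (24.2% of all genes), and in both knockdown lists at 2, CTNNB1 and ZNRF3 (25.4% of all genes). TCF7 was the only gene of the 10 with no V2084D peak, and 49.4% of all genes had none. CTNNB1 was the only one with a peak in all 6 lists (16.4% of all genes).

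CTNNB1 encodes beta-catenin, the effector that carries the Wnt signal to the nucleus. It lies on chromosome 3 from 41199505 to 41240443 (GRCh38, plus strand). Its peaks fell at the annotated start and at sites 26 kb and 34 kb inside the gene. The peaks at the start overlapped the RefSeq promoter window (GRCh38.p14, 250 bases before to 50 after the gene start), which is shown because it carried peaks in 5 of the 6 lists. Capitals mark GC boxes (GGGCGG on either strand).
CTNNB1 promoter, chr3:41199255-41199554, plus strand: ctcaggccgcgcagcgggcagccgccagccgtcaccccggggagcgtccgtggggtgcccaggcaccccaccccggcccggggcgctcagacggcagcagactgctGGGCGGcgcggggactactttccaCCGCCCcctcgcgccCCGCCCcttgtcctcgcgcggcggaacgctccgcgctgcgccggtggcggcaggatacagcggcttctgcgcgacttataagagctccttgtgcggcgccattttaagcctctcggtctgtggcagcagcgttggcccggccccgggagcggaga

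At the CTNNB1 start the fold enrichment was 6.40 and 5.74 in the WT lists (ranks 4238 and 5245). It was 3.64 in V2084D replicate 2 (rank 8909), while V2084D replicate 1 had no peak there. With STUB1 knockdown it was 3.84 in replicate 1 (rank 7918) and 4.87 in replicate 2 (rank 1478). The summits of these 5 peaks lay at -227 to -46 bp from the annotated start (negative values are before it), a span of 181 bp.

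The site 26 kb inside CTNNB1, from 41224929 to 41225824, was the only one of the 46 sites at the 10 genes with a peak in all 6 lists. A site here is a set of peaks of any lists linked by overlap. The WT folds there were 4.04 (rank 20472, at 74.2% of its list) and 4.85 (rank 12800, at 48.3%). V2084D had folds of 9.50 (rank 136) and 5.80 (rank 2206), and the knockdown lists had 5.61 (rank 3624) and 6.62 (rank 940). The 2 WT peaks were 299 bp wide each and did not touch each other, so they formed no reproducible WT region, whereas the V2084D peaks were 873 and 645 bp wide. The site 34 kb inside, from 41233458 to 41234002, had no peak in WT replicate 1 or in knockdown replicate 1. Its fold was 6.31 in WT replicate 2 (rank 5973), 10.5 and 7.14 in V2084D (ranks 94 and 705) and 8.17 in knockdown replicate 2 (rank 304).

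The order of the CTNNB1 sites within a list thus differed. In both WT lists the peak at the start had a better rank than any peak inside the gene, although the fold at 34 kb was higher than at the start in WT replicate 2. In the 3 mutant lists that had a peak at the start, a peak inside the gene ranked better, and in V2084D replicate 1 only the inner sites were present. The inner peaks of V2084D replicate 1 were among the 200 strongest of its 6000 peaks, and 6 of these 200, the peak at 34 kb among them, had no peak in WT replicate 1. WT replicate 2 did have a peak at 34 kb (rank 5973). Against WT replicate 2, 6 of the 200 had no peak as well, and the peak at 34 kb was not among those. The difference in order between groups was not tested.

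**Figure D2:**
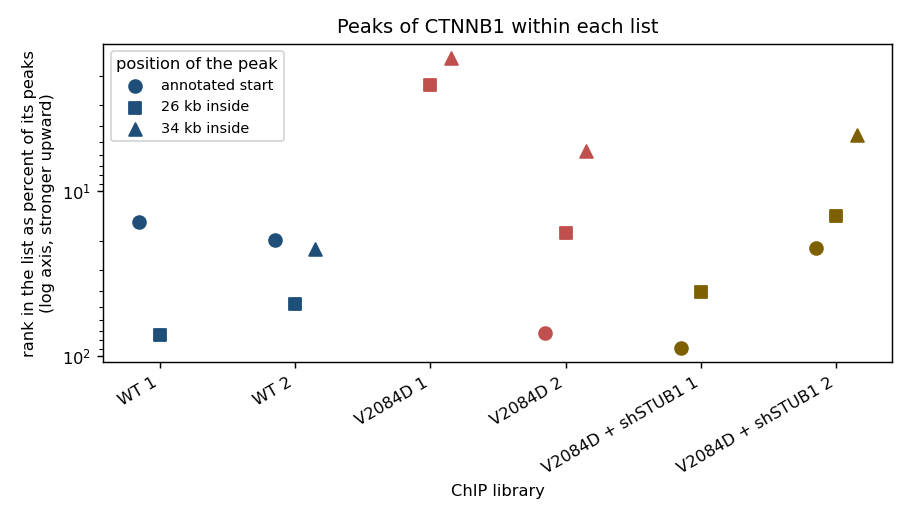
Rank of the CTNNB1 peaks within each list as a percent of the list's peaks (log axis, stronger peaks upward), at the annotated start (circles), 26 kb inside (squares) and 34 kb inside the gene (triangles). Circles lie above the other symbols in both WT lists (15.4% and 19.8%) and below them in the mutant lists that have one, while the inner sites of V2084D replicate 1 lie at 2.27% and 1.57%.

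APC, AXIN1 and AXIN2, which encode scaffold proteins of the destruction complex, each had a WT region at a start of the gene and few peaks in the mutant lists. APC lies on chromosome 5 from 112707498 to 112846239 and has more than 1 start. It had 1 peak in each of 3 lists, at 112737458 to 112738695, about 30 kb inside the annotated gene. This site overlapped the RefSeq promoter window of an inner APC start, and no list had a peak in the window of the outermost start. The windows of both starts are shown for this contrast, with capitals for GC boxes, for CCAAT boxes (CCAAT on either strand) and for the E-box CACGTG.
APC outermost start, chr5:112707248-112707547, plus strand: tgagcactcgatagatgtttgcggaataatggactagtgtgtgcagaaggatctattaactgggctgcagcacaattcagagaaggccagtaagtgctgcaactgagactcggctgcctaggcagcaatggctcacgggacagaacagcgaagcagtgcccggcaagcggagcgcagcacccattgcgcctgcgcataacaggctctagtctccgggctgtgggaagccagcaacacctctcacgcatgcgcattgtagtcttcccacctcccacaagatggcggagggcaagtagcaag
APC inner start, chr5:112737635-112737934, plus strand: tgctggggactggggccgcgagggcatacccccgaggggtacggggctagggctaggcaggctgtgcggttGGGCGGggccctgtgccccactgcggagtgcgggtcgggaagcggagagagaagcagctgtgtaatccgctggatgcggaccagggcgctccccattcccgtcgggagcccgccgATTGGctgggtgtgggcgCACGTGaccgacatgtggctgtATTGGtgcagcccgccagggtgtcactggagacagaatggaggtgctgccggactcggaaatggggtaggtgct

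The window of the occupied APC start was 68.0% G and C with 23 CpG and held 1 GC box, 2 CCAAT boxes and 1 E-box. The window without peaks was 56.3% G and C with 14 CpG and held none of the motifs searched. The fold at the occupied start was 6.96 and 9.79 in WT (ranks 2543 and 332), and the peak of WT replicate 2 was the best ranked of all peaks at the 10 genes in that list. V2084D replicate 1 had a fold of 5.74 there (rank 1172), with a summit at 155 bp from this inner start, against -52 and -202 bp in WT. No peak was listed at APC in V2084D replicate 2 or in either knockdown list.

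AXIN1, which nucleates the destruction complex, lies on chromosome 16 from 287440 to 352723 on the minus strand. At its start, from 352097 to 352739, the fold was 6.07 and 4.07 in WT (ranks 8042 and 17861) and 6.24 in V2084D replicate 2 (rank 1421). The other 3 mutant lists had no peak there. The promoter window is shown because the WT peaks reached into it, with summits 216 and 24 bp inside the gene, and because it is the richest of the windows in GC boxes (8, in capitals), with 78.0% G and C.
AXIN1 promoter, chr16:352674-352973, minus strand: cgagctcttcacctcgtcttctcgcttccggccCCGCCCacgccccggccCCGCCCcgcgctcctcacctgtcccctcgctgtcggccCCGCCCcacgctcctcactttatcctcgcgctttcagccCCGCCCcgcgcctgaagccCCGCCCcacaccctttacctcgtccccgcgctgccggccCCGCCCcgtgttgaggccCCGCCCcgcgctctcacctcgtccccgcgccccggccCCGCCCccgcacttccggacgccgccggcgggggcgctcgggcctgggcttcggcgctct

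Beyond the other end of AXIN1, a site from 280152 to 281584 had peaks in both WT lists and V2084D replicate 2, with top folds of 3.52, 5.34 and 4.39. It overlapped ARHGDIG, a neighbouring gene. The single AXIN1 window peak with STUB1 knockdown, in replicate 1, had its summit at -9.71 kb from the start (fold 3.84, rank 7918) and was the only site of the 46 without a WT peak.

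AXIN2 encodes a scaffold like AXIN1 and is induced by Wnt signalling as a feedback inhibitor. It lies on chromosome 17 from 65528563 to 65561648, and its start is at the high-coordinate end. The site there, from 65560478 to 65562234, was covered by a single 1757 bp peak in WT replicate 2 (fold 6.02, rank 1776) and by 2 peaks in WT replicate 1, the stronger with a fold of 4.37 (rank 7504). V2084D replicate 2 had a peak with a fold of 2.64 (rank 12094 of 12384), near the bottom of its list. No peak was listed at AXIN2 in the 3 remaining mutant lists.

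RNF43 and ZNRF3 encode membrane ubiquitin ligases that remove Frizzled receptors from the cell surface, and they are induced by Wnt signalling. They differed in the knockdown lists, where ZNRF3 had peaks in both replicates and RNF43 in neither. RNF43 lies on chromosome 17 from 58352500 to 58417534 on the minus strand, and its only reproducible WT region, from 58351619 to 58352656, was at its far end and overlapped SUPT4H1 and the promoter window of that gene. The fold there was 5.21 and 4.90 in WT (ranks 5025 and 5178) and 4.60 in V2084D replicate 2 (rank 4012). At the start of RNF43 itself only WT replicate 2 had a peak, with a fold of 3.83 (rank 14536).

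ZNRF3 lies on chromosome 22 from 28883572 to 29057488. At its start, from 28883402 to 28884623, the fold was 6.48 and 4.39 in WT (ranks 5019 and 11865), 4.19 in V2084D replicate 2 (rank 6363), and 5.02 and 4.25 with knockdown (ranks 3870 and 4432). Another site, with summits at -609 to -589 bp from the start, had a peak in WT replicate 2 (fold 5.21) and in both knockdown lists (4.46 and 4.09), and none in V2084D. WT replicate 1 had no peak there, so the site was not a reproducible WT region. A further site 147 kb inside, from 29030398 to 29031379, overlapped the antisense gene ZNRF3-AS1. Its fold was 3.79 and 5.46 in WT, 4.93 in V2084D replicate 2 and 3.90 in knockdown replicate 2.

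TCF7, TCF7L2 and LEF1 encode the DNA-binding partners of beta-catenin. TCF7L2 and LEF1 held the most WT peaks of the 10 genes, and TCF7 held no reproducible region. TCF7L2, on chromosome 10 from 112950247 to 113167678, had 11 and 9 WT peaks, and 0.805% and 1.52% of the protein-coding genes over 100 kb had as many or more. All peaks together covered 6099 and 7505 bp in the 2 lists, and 5 reproducible regions were formed, all within 10 kb after the annotated start. The strongest region, from 112956233 to 112957167, had folds of 7.28 and 6.19 (ranks 2769 and 4348) and summits 6.56 and 6.47 kb after the start.

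In the mutant lists TCF7L2 had 1, 1, 0 and 1 peaks, in the order of V2084D and then knockdown replicates, and each lay at another place. V2084D replicate 2 had a peak of fold 3.35 (rank 11352) at the first WT region, 0.897 kb after the start. V2084D replicate 1 had one of fold 5.00 (rank 3009) 98.1 kb inside, where only WT replicate 2 had a peak among the WT lists. Knockdown replicate 2 had one of fold 3.72 (rank 5574) 176 kb inside, where WT replicate 1 had a fold of 4.15. The other 4 WT regions had no peak in any mutant list. The promoter windows of the outermost start, which carried no peak in any list, and of the inner start under the peaks at 176 kb are shown, with GC boxes in capitals.
TCF7L2 outermost start, chr10:112949997-112950296, plus strand: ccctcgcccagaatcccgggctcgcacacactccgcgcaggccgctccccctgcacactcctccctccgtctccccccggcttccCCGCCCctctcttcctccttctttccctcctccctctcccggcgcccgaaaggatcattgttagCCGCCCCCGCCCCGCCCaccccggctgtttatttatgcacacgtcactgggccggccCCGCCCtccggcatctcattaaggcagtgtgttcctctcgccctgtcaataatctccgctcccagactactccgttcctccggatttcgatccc
TCF7L2 inner start, chr10:113126383-113126682, plus strand: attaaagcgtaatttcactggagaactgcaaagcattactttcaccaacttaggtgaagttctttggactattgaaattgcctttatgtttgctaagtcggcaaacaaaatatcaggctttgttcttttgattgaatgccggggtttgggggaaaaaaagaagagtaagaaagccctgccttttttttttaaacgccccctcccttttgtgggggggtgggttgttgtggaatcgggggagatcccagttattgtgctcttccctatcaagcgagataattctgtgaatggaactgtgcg

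The outermost window was 65.7% G and C and held 5 GC boxes, and the inner window was 42.7% G and C and held none of the motifs. All 12 RefSeq promoter windows found for 7 of the genes (AXIN2, ZNRF3 and MYC were not matched) lacked the TCF/LEF core CTTTGA on both strands, and 12.9% of 35116 windows of this length held it. The GC box was found in 45.0% of these windows, CCAAT in 34.6%, the E-box CACGTG in 7.26% and the AP-1 motif TGANTCA in 7.71%. Some of the GC boxes of the outermost TCF7L2 window overlap each other. Such matches are letters only and no measure of binding. Of the 12 windows, 5 and 6 carried a WT peak (38.8% and 37.5% of all windows), 1 and 1 a V2084D peak (10.6% and 18.1%), and 1 and 2 a peak with knockdown (16.5% and 11.7%).

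LEF1, on chromosome 4 from 108047548 to 108168932 on the minus strand, had 6 and 5 WT peaks. These formed 4 reproducible regions, 3 of them within 5 kb of its start, except for 1 peak of WT replicate 1 with its summit at -1.92 kb, which no peak of replicate 2 overlapped. The strongest region lay before the start, from 108171224 to 108173586, where the antisense gene LEF1-AS1 is annotated. Its top folds were 8.61 and 5.74 in WT (ranks 845 and 5245), 4.14 in V2084D replicate 1 (rank 4577) and 3.41 in V2084D replicate 2 (rank 9463), and neither knockdown list had a peak. It was the only WT region at the 10 genes with peaks in both V2084D lists, but these 2 peaks did not overlap each other and had summits at -3.04 and -4.35 kb from the start. The region at the annotated start itself had folds of 4.61 and 4.59 in WT and of 3.33 in knockdown replicate 1 (rank 7588), and none in V2084D. The region 2 kb inside, where WT peaks reached the RefSeq window of an inner start, and the region 33 kb inside had V2084D peaks in replicate 2 only, with folds of 4.27 and 3.95.

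TCF7, on chromosome 5 from 134108218 to 134148210, had 2 peaks in each WT list, and none of them overlapped a peak of the other. One of WT replicate 2, from 134115495 to 134115829, overlapped the RefSeq promoter window of an inner start and had a fold of 4.85 (rank 12800). The only mutant peak, in knockdown replicate 1 (fold 4.43, rank 7193), lay past the far end of the gene, at a site that overlapped SKP1.

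**Figure D3:**
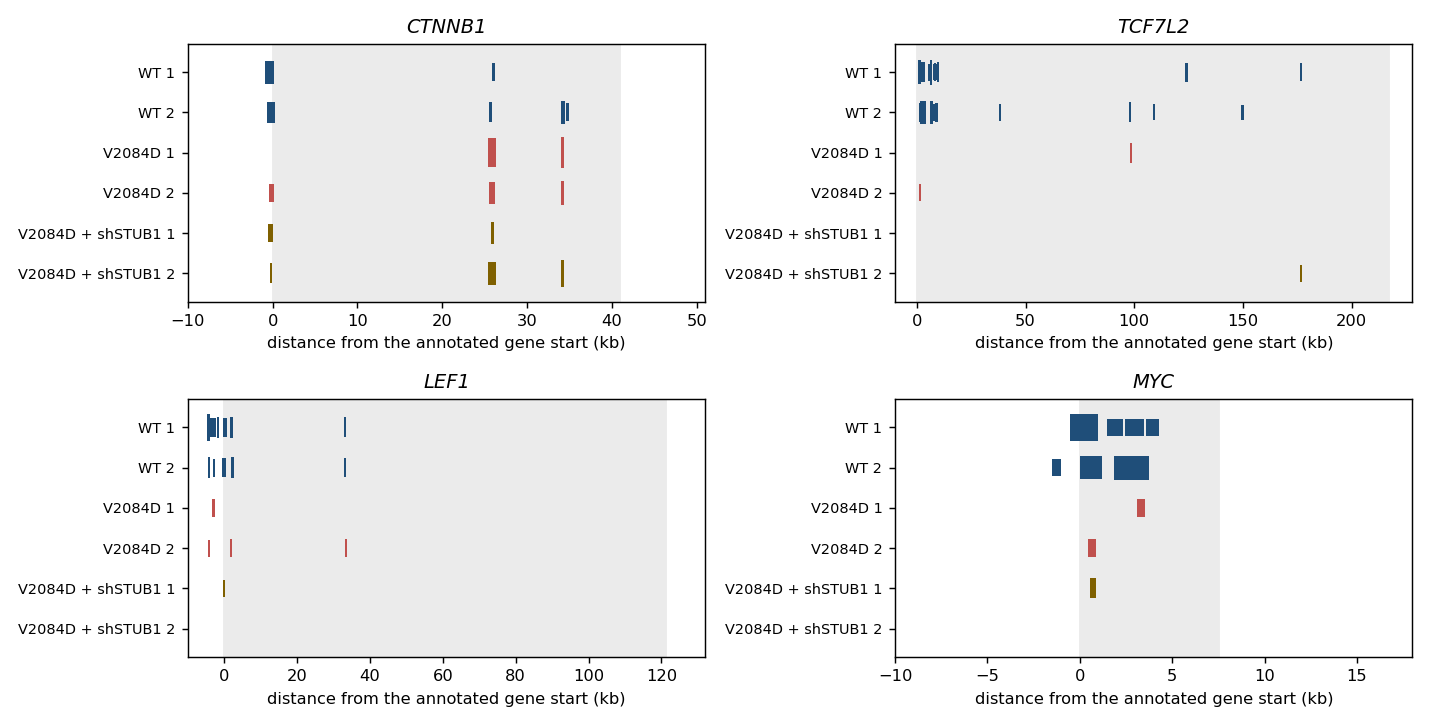
Peaks at CTNNB1, TCF7L2, LEF1 and MYC in the 6 libraries, plotted by distance from the annotated gene start in kb, with the gene shaded and upstream to the left. Bar width is peak width (with a minimum drawn width), and bar height grows with fold. WT peaks gather near the start at TCF7L2, LEF1 and MYC. At CTNNB1 the site 26 kb inside has a peak in all 6 lists. The site 34 kb inside has one in WT replicate 2, both V2084D lists and knockdown replicate 2.

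MYC encodes a transcription factor that drives cell growth and is a classical target of beta-catenin and TCF. It lies on chromosome 8 from 127735434 to 127742951. WT peaks covered 4113 and 3673 bp of its window, in 4 and 3 peaks. At the start, from 127734886 to 127736634, the fold was 8.24 and 6.29 in WT (ranks 1590 and 3158), 3.94 in V2084D replicate 2 (rank 7172) and 4.97 in knockdown replicate 1 (rank 2469). The site just after it, from 127736913 to 127739706, had top folds of 3.67 and 6.95 in WT and 3.84 in V2084D replicate 1 (rank 4577). The V2084D replicates thus had their MYC peaks at different places, 3.24 and 0.651 kb after the start, and knockdown replicate 2 had none. In knockdown replicate 1 the MYC peak was the best ranked of the 8 peaks at the 10 genes.

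Across the 10 genes, 19 reproducible WT regions were found among 16157 in all, with a median of the worse of the 2 WT ranks of 11580 against 12471 for all WT regions. V2084D peaks covered 3 of the 19 in replicate 1 (27.7% of all WT regions) and 12 in replicate 2 (46.8% of all). Knockdown peaks covered 4 in replicate 1 (41.5% of all) and 3 in replicate 2 (31.5% of all). The mean share was 39.5% ± 33.5 (SD, n = 2) for V2084D and 18.4% ± 3.72 (SD, n = 2) with knockdown. Over all WT regions it was 37.2% ± 13.5 (SD, n = 2) for V2084D and 36.5% ± 7.12 (SD, n = 2) with knockdown. At the 19 regions, knockdown minus V2084D was -21.1 percentage points, and the 4 library pairs ran from -47.4 to 5.26 (two-sided exact permutation p = 1). The V2084D replicates alone thus lay further apart than the groups. Without the 5 regions of TCF7L2, a choice made after the values were seen, the counts were 3 and 11 of 14 for V2084D and 4 and 3 of 14 with knockdown.

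By class, 5 of the 19 WT regions had no V2084D peak (46.8% of all WT regions) and 1 had one in both V2084D lists (21.3% of all). The first count rested on the peak threshold and overlap, with 7 of 8 regions when −log10 q had to reach 5 and 11 of 15 with 50% overlap. The shares over all WT regions at these 2 settings were not computed. No region without a V2084D peak was regained in both knockdown lists (2.46% of all), and 1, at LEF1, showed the opposite (2.70% of all). Both knockdown lists covered 2 regions, the starts of CTNNB1 and ZNRF3 (23.2% of all), and 14 had no knockdown peak (50.2% of all). None of the 19 was covered in all of the mutant lists (13.0% of all), and 4 regions, all at TCF7L2, had no mutant peak (34.9% of all). At the level of genes, none of the 9 genes with a WT region lacked a V2084D peak in its whole window (27.1% of such genes), so none was regained (2.13% of such genes). For AXIN2 this rested on a peak of rank 12094 of 12384 in V2084D replicate 2. For RNF43 it rested on a peak at the far end of the gene, at the site that overlapped SUPT4H1.

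Peaks that both libraries of a mutant group shared by overlap were few. V2084D had 2 such regions at the 10 genes among 3617 in all, both inside CTNNB1. The knockdown group had 4 among 3966, at the start and 26 kb inside CTNNB1 and at the start and just before the start of ZNRF3. The peaks at the other 8 genes in the mutant lists were each seen in 1 library of the group at that place.

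The number of peaks at the 10 genes was 35 and 38 in the WT lists. It was 6 and 14 under V2084D and 8 and 7 with the knockdown. The WT counts did not overlap those of either mutant group. On the log2 scale V2084D differed from WT by -1.99 (pairs from -2.66 to -1.32) and the knockdown group by -2.28 (pairs from -2.44 to -2.13), each with a two-sided exact permutation p = 0.333 (adjusted p = 0.5 over 3 group pairs). With 2 libraries against 2, 0.333 is the smallest p this test can give. The knockdown group differed from V2084D by -0.29 (pairs from -1 to 0.42, exact permutation p = 1), less than the spread within V2084D.

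Since the mutant lists were shorter throughout, the same counts were taken per 10000 peaks of the list. WT then had 12.7 and 14.3 and V2084D 10 and 11.3, and the knockdown lists had 8.98 and 10.5. The log2 difference from WT was -0.34 for V2084D (pairs from -0.52 to -0.17) and -0.47 for the knockdown group (pairs from -0.67 to -0.27), with an exact permutation p = 0.333 and an adjusted p = 0.5 for each. Between the mutant groups it was -0.13, with library pairs on both sides of 0, from -0.33 to 0.07 (exact permutation p = 0.667, also after adjustment). Most of this gap was at TCF7L2. Without it WT had 8.70 and 10.9, V2084D had 8.33 and 10.5, and the knockdown lists had 8.98 and 9.005. The log2 difference of V2084D from WT was then -0.06 and that of the knockdown group -0.12 (exact permutation p = 0.667 and p = 1). Leaving out CTNNB1 instead gave -0.69 and -0.96. Both choices were made after seeing the data. For V2084D against WT the direction also turned with stricter peak thresholds. It was 0.41 when −log10 q had to reach 5 (pairs from -0.38 to 1.20). It was 0.22 when the fold had to reach 5 (pairs from -0.36 to 0.81). At the first threshold each V2084D list kept only 3 peaks at the 10 genes, and the WT lists kept 11 and 14.

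The other genes of the pathway were taken from 7 lists of 140 names, of which 138 were matched as protein-coding genes. The lists were chosen with earlier results of these data known, so their shares are description only. The all-gene shares beside them are split by gene length at most. Genes of the nuclear partners of beta-catenin had a reproducible WT region at 19 of 20, a peak in both V2084D lists at 16 and a peak in both knockdown lists at 11. Over all genes these shares were 63.8%, 24.2% and 25.4%, and the V2084D share ran from 22.6% to 24.9% over the 3 classes of gene length. The 11 with peaks in all 6 lists (16.4% of all genes) included CREBBP and EP300, histone acetyltransferases that act with beta-catenin. Others were the Groucho co-repressors TLE1, TLE3 and TLE4, and TBL1X and TBL1XR1, exchange factors of transcription complexes. At TBL1X, on chromosome X, the strongest WT region had folds of 12.6 and 14.1 (ranks 266 and 117). V2084D replicate 1 had a peak of rank 170 there and the knockdown lists had folds of 11.3 and 5.46, while V2084D replicate 2 had its peak elsewhere in the window. At CTBP1, a co-repressor gene on chromosome 4, all lists had a peak at the strongest WT region, with WT folds of 9.97 and 11.3, V2084D folds of 7.18 and 6.71 and knockdown folds of 6.85 and 6.17. TCF7L1, the remaining TCF gene, had a WT region and no peak in any mutant list.

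Genes of the MYC network had a WT region at 16 of 17 genes (63.8% of all genes). They had a peak in both V2084D lists at 9 (24.2% of all) and in both knockdown lists at 7 (25.4% of all). Peaks in all 6 lists were found at 6 of the 17, MYCL, MXI1, MXD4, MNT, MGA and AURKA (16.4% of all genes). MXI1 and MNT encode MAX partners that oppose MYC, with WT folds of 9.14 and 7.65 at MXI1 and 8.61 and 9.10 at MNT. MXD1 and MXD3 had peaks in 4 and 5 lists. MAX, the obligate partner of MYC, had a WT region and no V2084D peak. FBXW7, the ligase subunit that targets MYC for degradation, was 1 of 106 pathway genes with a WT region that had no V2084D peak and a peak in both knockdown lists, a pattern held by 2.13% of all genes with a WT region.

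Genes of the destruction complex and Dishevelled proteins had a WT region at 19 of 20 (63.8% of all genes). They had a peak in both V2084D lists at 5 (24.2% of all) and in both knockdown lists at 8 (25.4% of all). The strongest WT region was that of DVL2, a Dishevelled gene that relays the signal from Frizzled, with WT folds of 14.0 and 12.1 (ranks 106 and 195). The V2084D folds there were 4.48 and 5.53 and the knockdown folds 5.12 and 6.85, each within its own list and not compared between lists. At CSNK1E, a casein kinase gene, the WT folds were 7.60 and 10.6, those of V2084D 6.92 and 4.11 and those of the knockdown group 6.65 and 4.72. FBXW11, a ligase subunit that recognises phosphorylated beta-catenin, had WT folds of 8.13 and 6.88 (ranks 684 and 494). V2084D replicate 1 had no peak there, V2084D replicate 2 had a fold of 6.16 (rank 306), and the knockdown lists had 4.11 and 5.38 (ranks 3908 and 524).

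Receptor genes had a WT region at 15 of 18 (63.8% of all genes). Of the 18, 4 had a peak in both V2084D lists, FZD2, LRP6, ROR1 and LGR4 (24.2% of all genes). Peaks in both knockdown lists were also found at 4 (25.4% of all genes). FZD2 led with WT folds of 8.59 and 10.2 (ranks 2110 and 472), V2084D folds of 7.50 and 5.80, and knockdown folds of 5.64 and 5.88. Ligand genes had a WT region at 16 of 25 (63.8% of all genes). They had a peak in both V2084D lists at 4 (24.2% of all) and in both knockdown lists at 4 (25.4% of all). WNT3A and WNT9A, which are neighbours on chromosome 1, were the 2 of 25 with peaks in all 6 lists (16.4% of all genes). Genes of extracellular modulators had a WT region at 6 of 18, the lowest share of the 7 lists (33.3%, against 63.8% of all genes). Of these 18, 2 had a peak in both V2084D lists (24.2% of all genes) and 1 in both knockdown lists (25.4% of all). Among them DKK1, a secreted inhibitor, had folds of 6.29 and 5.87 in WT. Wnt target genes had a WT region at 15 of 20 (63.8% of all genes). They had a peak in both V2084D lists at 6 (24.2% of all) and in both knockdown lists at 5 (25.4% of all). GLUL, the glutamine synthetase gene of pericentral hepatocytes, had folds of 9.38 and 9.76 in WT (ranks 950 and 575). At this GLUL region V2084D replicate 1 had no peak, V2084D replicate 2 had a fold of 3.52 (rank 7422), and the knockdown lists had 6.85 and 4.65 (ranks 886 and 3459). The next target by WT rank, ID2, had WT folds of 7.73 and 10.3 at its strongest region. There V2084D replicate 2 had a fold of 3.76 (rank 9653), and V2084D replicate 1 and the knockdown lists had no peak. At BMP4 the strongest WT region had a peak in every list. No list was tested for enrichment, and a window can hold peaks of neighbouring genes.

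Presence of a peak in the 6 lists gives each gene a pattern. MYC had peaks in all lists but knockdown replicate 2, and 8 of the 138 other pathway genes had the same pattern in 6 of 6 lists, WNT11, DKK1, BCL9, BCL9L, TLE5, PPARD, MLX and TRRAP. AXIN2 had peaks in the WT lists and V2084D replicate 2 alone, and 8 genes matched it in 6 of 6 lists, WNT1, FZD1, FZD8, LGR5, NOTUM, NKD1, PYGO1 and ZBTB17. Of all 20037 protein-coding genes, 775 had the MYC pattern and 1267 the AXIN2 pattern.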

How the data were processed

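Flag ChIP-seq of Huh7 cells gave 6 deposited peak lists, each called from a single library. The submitters' processing notes name MACS2 together with Trimmomatic, Bowtie2, SAMtools, Picard, deepTools and bedtools, and hg38 as the build. The sources used here give no versions, settings or control libraries for these steps. The authors' fold enrichment (a ratio) and their deposited −log10 p and −log10 q values were used as they stand, only for ranking, filtering and description inside a list. The deposited score repeats −log10 q and was not used, and the deposited summit offsets gave the summit positions. Lists reached down to −log10 q between 0.602 and 0.639. Read depth is unknown from these files.

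Genes and promoter sequences came from RefSeq tables of GRCh38.p14, the assembly of hg38. A peak was taken for a gene when it overlapped the window from 10 kb before to 10 kb after it by at least 1 bp. The gene table gives no strand. Strands of AXIN2, ZNRF3 and MYC, which the promoter table does not hold, are textbook knowledge. WT regions are peaks of both WT lists that overlap by at least 1 bp, and they count as covered where a list's peak overlaps them. Log2 values per library were compared by two-sided exact permutation tests over libraries with Benjamini-Hochberg adjustment over 3 group pairs. Covered shares were compared by the same test between the mutant groups only, a single comparison that needed no adjustment. Named are all 10 genes and, per pathway list, genes with the strongest WT regions (up to 4 by the worse WT rank), those that match MYC or AXIN2, and neighbours under a peak. Other pathway genes (such as CREBBP, EP300, TLE1, TLE4, ROR1, LGR4, MAX, FBXW7 and TCF7L1) were named after their values were seen. Genes and lists were chosen with earlier results of these data known. Scripts (Python 3.11.15, pandas 2.3.3) were tested on simulated data. Alternatives were −log10 q of at least 5, fold of at least 5, lists of equal length, a 50 kb window, summits in the window, 50% overlap, summits within 200 bp, each library left out, and the replicate block.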

Additional observations from a re-analysis of the deposited data

How the results depend on the processing

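Depth is unknown, so an absent peak is no measured absence of binding. Per 10000 peaks, V2084D against WT turned to 0.41 with −log10 q of at least 5 and 0.22 with fold of at least 5. The knockdown group against V2084D turned to 0.013 with the 50 kb window. In each of these settings the library pairs lay on both sides of 0. The knockdown minus V2084D difference in covered share turned to 6.25 percentage points with −log10 q of at least 5 and shrank to 0 with lists of equal length and with summits within 200 bp, to -3.33 with 50% overlap and to -7.14 with fold of at least 5. Its cause was not tested, nor was that of the others.

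The 19 WT regions became 8 with −log10 q of at least 5, 7 with fold of at least 5, 6 with lists of equal length and 12 with summits within 200 bp, and the genes with one became 5 with fold of at least 5. The 1 region with both V2084D lists became 0 in these 4 settings and with 50% overlap, and 3 with the 50 kb window. The 5 without a V2084D peak became 11 of 27 with the 50 kb window, 11 of 15 with 50% overlap and 9 of 12 with summits within 200 bp. It was 7 of 8 with −log10 q of at least 5, 6 of 7 with fold of at least 5 and 4 of 6 with lists of equal length. The shares over all WT regions at these settings were not computed, so the change from 5 of 19 is not read as particular to these genes. The 0 regained became 1 with the 50 kb window.

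With each library left out, WT regions numbered 35 to 38, those with both V2084D lists 1 to 12, those without a V2084D peak 7 to 21 and those regained 0 to 2, the remaining library standing for its group. These counts have different totals, 38 or 35 regions without a WT library and 19 without a mutant library. Regions without a V2084D peak were thus 21 of 38 and 19 of 35, and 7 and 16 of 19. Shares over all WT regions were not computed here. Genes with a WT region were 10 when a WT library was left out. The covered-share difference ran from -44.7 to 2.63, positive without V2084D replicate 2. Peak number ran from -2.60 to -1.38 for V2084D against WT, from -2.38 to -2.19 for the knockdown group against WT and from -0.90 to 0.32 between the mutant groups, positive without V2084D replicate 2. Per 10000 peaks these were -0.43 to -0.25, -0.59 to -0.36 and -0.24 to -0.02.

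With the replicate block the values were those of the unpaired comparison by construction (-1.99, -2.28, -0.29, -0.34, -0.47, -0.13 and -21.1), with a smallest possible exact permutation p of 0.5. Over 2108 regions with peaks in all 6 lists, the differences in log2 fold between replicates 1 and 2 were not correlated between groups. Pearson r was 0.0086, 0.0038 and 1.25e-05 over regions, which are not replicates. A shift common to all regions would not change r, so it cannot show whether samples of the same number share a batch.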
